A study of Rattus norvegicus with 24 samples.

Results

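Monoacylglycerol lipase, the product of Mgll, was examined in rat kidney together with the other core genes of endocannabinoid metabolism. The rule took every probe set with 1 platform gene symbol among Mgll, Faah, Dagla, Napepld, Abhd6 and Cnr1 on the Affymetrix arrays RAE230A and RAE230B, and found 9 of 31142 probe sets, for 4 of the 6 genes. Mgll had 4 probe sets, Abhd6 and Cnr1 had 2 each and Faah had 1, while no probe set was listed under the symbols Dagla and Napepld. A further probe set, 1368717_at, was listed under a pair of gene identifiers that both carry the symbol Faah. It is given beside the others and is not counted. Mgll, and with it the member genes, was chosen by its measured signal, which had shifted in opposite directions from S in the congenic strains. Its strain differences are therefore described without a test and support nothing by themselves.

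Left kidneys came from male rats of 3 strains aged 67 to 69 days. The congenic substrains ET3x2 and ET3x1 were set against SS/jr (S), the inbred Dahl salt-sensitive strain. General knowledge of these strains places their donor segment, from the salt-resistant R strain, around the endothelin 3 gene on chromosome 3, in an otherwise S genome. All rats had been raised on 0.4% NaCl food to an age of 39 to 41 days and then ate 2% NaCl food over 28 days, so that no group was kept on low salt throughout. A pool mixed RNA of 3 rats in ET3x2 (pools I, J, K and L), of 3 rats in ET3x1 (E, F, G and H) and of 2 rats in S (A, B, C and D), and the variation of single rats is not seen. Each strain had 4 pools, and each pool was read on 1 array of each type. The values were log2 signals, and 1 unit is a doubling of signal under that reading of the deposited tables.

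Endocannabinoids are lipid messengers made on demand from membrane phospholipids. Diacylglycerol lipases (Dagla, Daglb) make 2-arachidonoylglycerol, and N-acyl phosphatidylethanolamine phospholipase D (Napepld) makes anandamide. Both lipids act on the cannabinoid receptor CB1, encoded by Cnr1. Monoacylglycerol lipase and the hydrolase Abhd6 end the action of 2-arachidonoylglycerol by releasing arachidonic acid and glycerol, and fatty acid amide hydrolase (Faah) splits anandamide into arachidonic acid and ethanolamine. Monoacylglycerol lipase also carries out the last step of triglyceride breakdown in many tissues, and kidney tubules and vessels are known to express parts of this system.

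Signals of nephron markers were read beside the tissue label. Slc34a1, Lrp2, Cubn and Slc5a2 of the proximal tubule, Umod and Slc12a1 of the thick limb, Slc12a3 of the distal tubule, and Aqp2, Aqp3 and Atp6v1b1 of the collecting duct all lay above the filter level, the 30th percentile of mean signal (7.52 on RAE230A and 6.85 on RAE230B). Nphs1 of podocytes (7.29) and Pvalb of the distal tubule (6.62) lay below it, and Wt1 of podocytes (7.97) lay above it. Most probe sets pass this level by its definition. Of the markers on the arrays, 2 of 4 for neurons and 2 of 5 for the adrenal also passed it. Passing this level alone therefore does not check the tissue label. The pools A, B and J stood apart in an RNA quality control, the beta-actin 5' minus 3' signal. On RAE230A it was −1.27 to −1.14 in them and −2.1 to −1.66 in the other 9, so that their 5' signal fell less far below the 3' signal. A and B are S pools and J is an ET3x2 pool, and leaving these pools out is thus tied to strain. The same signal of GAPDH on RAE230A did not set A and B apart. It was −0.81 in A and −0.75 in B, below −0.71 in pool F, and was highest in J at −0.64. No pair of pools had identical values on either array.

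Mgll gave a different picture with each of its probe sets. The probe set 1370831_at, whose platform record is a directly submitted GenBank sequence, had signals of 10.57, 10.64, 9.88 and 9.94 in ET3x2 pools I to L, 12.03, 12.16, 12.32 and 11.73 in ET3x1 pools E to H, and 10.96, 11.11, 10.59 and 10.06 in S pools A to D. All 4 ET3x1 pools lay above all pools of both other strains (4.41% of the 21799 tested probe sets lay higher without overlap for ET3x1 against S, and 4.18% lower for ET3x2 against ET3x1), while the ET3x2 and S pools overlapped. The group means were 10.26 ± 0.40 in ET3x2, 12.06 ± 0.25 in ET3x1 and 10.68 ± 0.47 in S (SD, n = 4 pools each), in the order ET3x1, S, ET3x2. Of the 4 ET3x2 pools, 2 lay below all S pools and the rest within the S range, and this difference was not tested.

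As a description, the difference in log2 signal of 1370831_at was 1.38 (SE 0.22, 2.60-fold) for ET3x1 minus S, −0.42 (SE 0.22) for ET3x2 minus S and −1.80 (SE 0.22, 0.287-fold) for ET3x2 minus ET3x1. Both differences from S share the S pools. The opposite signs for which Mgll was picked thus joined a separation of the groups in ET3x1 with an overlap in ET3x2. In whole-kidney RNA, fewer cells of a type and less RNA per cell cannot be told apart.

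Within strains, pools A and B had the highest signal of S and pool J the highest of ET3x2, and these were the pools with the highest beta-actin 5' minus 3' signal. In ET3x1 the highest pool was G, whose beta-actin value of −2.02 was the lowest of that strain. Without pools A, B and J the differences were 1.73 for ET3x1 minus S, −0.20 for ET3x2 minus S and −1.93 for ET3x2 minus ET3x1, so that the ET3x1 differences were at least as large without these pools.

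The probe set 1375247_at, whose platform record is an expressed sequence tag, as for the 2 described after it, shared only the higher ET3x1 signal. It had 11.23, 11.36, 10.82 and 11.08 in ET3x2 pools, 11.31, 11.58, 11.20 and 11.34 in ET3x1 pools, and 10.80, 10.91, 11.06 and 10.98 in S pools. The ET3x1 pools lay above all S pools, the separation shown by 4.41% of tested probe sets, and overlapped with ET3x2, and 3 of the 4 ET3x2 pools lay above the highest S pool. Its means were 11.12 ± 0.23 in ET3x2, 11.36 ± 0.16 in ET3x1 and 10.94 ± 0.11 in S (SD, n = 4 each). The difference was 0.42 (SE 0.11) for ET3x1 minus S, 0.19 (SE 0.11) for ET3x2 minus S and −0.24 (SE 0.11) for ET3x2 minus ET3x1. For ET3x2 minus S this probe set therefore had the sign opposite to that of 1370831_at, and its difference was 0.026 without pools A, B and J.

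The brightest Mgll probe set, 1388644_at, was higher in ET3x2 and not in ET3x1. Its signals were 12.39, 12.36, 12.48 and 12.26 in ET3x2 pools, 12.10, 12.32, 11.68 and 11.96 in ET3x1 pools, and 11.73, 11.99, 12.21 and 12.12 in S pools. All ET3x2 pools lay above all S pools (as did 3.87% of tested probe sets for ET3x2 against S), ET3x1 and S overlapped, and 1 ET3x1 pool reached the range of ET3x2. The means were 12.37 ± 0.09 in ET3x2, 12.02 ± 0.27 in ET3x1 and 12.01 ± 0.21 in S (SD, n = 4 each). The difference was 0.0025 (SE 0.13) for ET3x1 minus S, 0.36 (SE 0.13) for ET3x2 minus S and 0.36 (SE 0.13) for ET3x2 minus ET3x1. Pools A and B, the highest of S for 1370831_at, were the lowest of S here. Without pools A, B and J the differences were −0.15 for ET3x1 minus S, 0.21 for ET3x2 minus S and 0.36 for ET3x2 minus ET3x1.

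The last Mgll probe set, 1375355_at, was dim. Its signal lay between 6.56 and 6.80 in all 12 pools, under the filter level of 7.52, and the means were 6.73 ± 0.06 in ET3x2, 6.63 ± 0.04 in ET3x1 and 6.72 ± 0.11 in S (SD, n = 4 each). The ranges of all 3 strains overlapped.

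**Figure D1:**
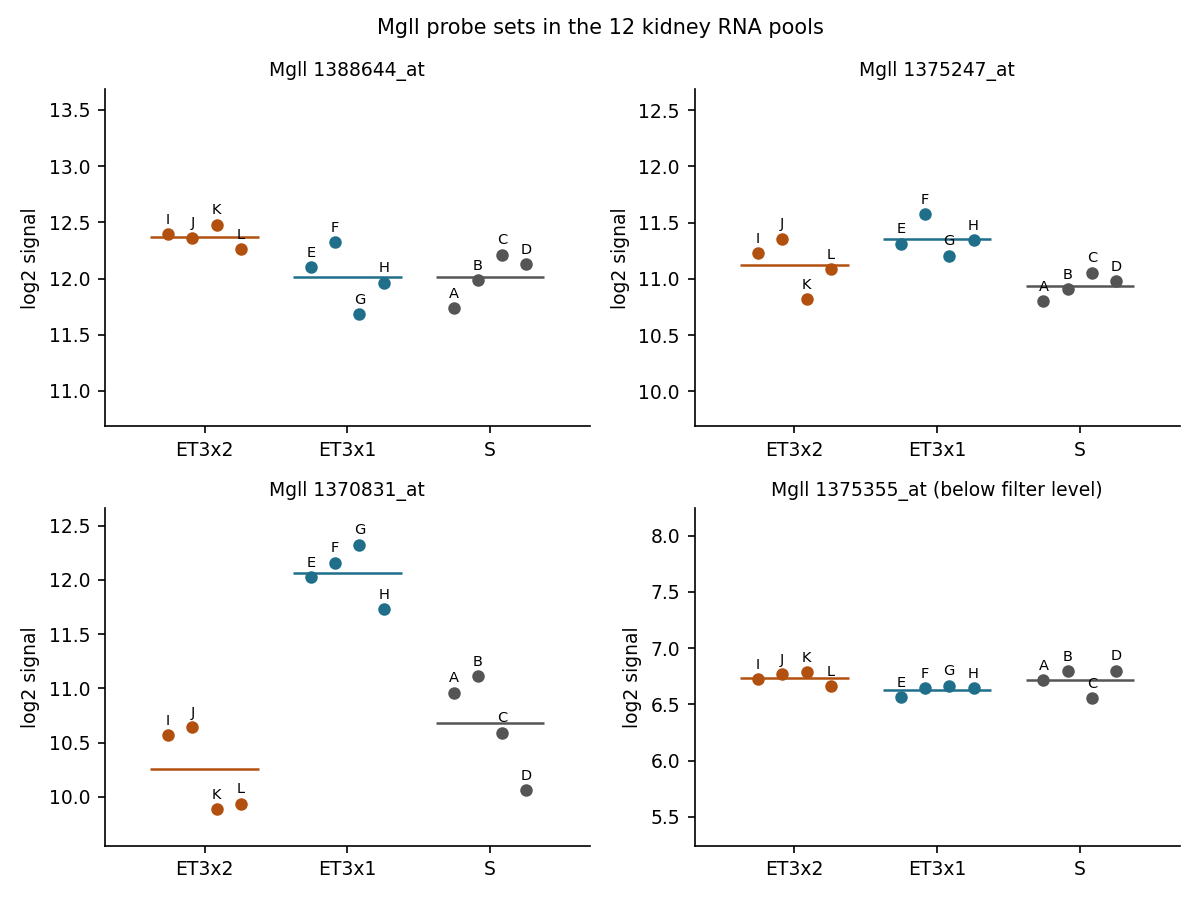
Log2 signal (y axis) of the 4 Mgll probe sets in each kidney RNA pool (points, labelled A to L) of ET3x2, ET3x1 and S, with the group mean as a line, where every panel spans about the same number of log2 units. The ET3x1 pools of 1370831_at (11.73 to 12.32) stand above all other pools, while 1388644_at is higher in ET3x2 (12.26 to 12.48) than in S (11.73 to 12.21) and 1375355_at lies below the filter level.

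The differences of the Mgll probe sets lay apart from each other. Among 2978 genes with 2 or more tested probe sets, the median gap between the highest and the lowest difference in log2 signal was 0.15 for ET3x1 minus S, 0.11 for ET3x2 minus S and 0.14 for ET3x2 minus ET3x1. For Mgll the gap was 1.38, 0.78 and 2.16 in the same order. These values are a description, since Mgll was picked for its shift and its gap runs over 3 probe sets, where other genes had as few as 2. Probe sets of opposite sign within a gene were common, in 49.6%, 43.5% and 43.8% of these genes.

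Over the 12 pools, 1370831_at had a Pearson r of 0.60 with 1375247_at and −0.52 with 1388644_at. After the strain means were subtracted, r was 0.25 and −0.31. These values are descriptions over pools that share their array with the probe sets compared.

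Faah, which degrades anandamide, overlapped between all strains. Its counted probe set 1384341_at on RAE230B had signals of 8.99, 8.97, 8.95 and 9.07 in ET3x2 pools, 8.94, 8.95, 9.01 and 8.94 in ET3x1 pools, and 9.19, 8.96, 9.12 and 8.93 in S pools. The S range enclosed all 8 congenic pools. The means were 8.99 ± 0.05 in ET3x2, 8.96 ± 0.03 in ET3x1 and 9.05 ± 0.12 in S (SD, n = 4 each). The difference was −0.089 (SE 0.064) for ET3x1 minus S, with a limma adjusted p of 0.679, and −0.057 (SE 0.064, adjusted p = 0.800) for ET3x2 minus S. Between the congenic strains it was 0.032 (SE 0.064, limma adjusted p = 0.874).

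The uncounted Faah probe set 1368717_at on RAE230A gave 8.76, 8.76, 8.69 and 8.59 in ET3x2 pools, 8.58, 8.85, 8.57 and 8.71 in ET3x1 pools, and 8.60, 8.80, 8.69 and 8.65 in S pools. All 3 strains overlapped, with differences from −0.0063 to 0.021 and limma adjusted p from 0.929 to 0.983. Both Faah probe sets thus lay within 0.09 log2 units of S in both congenic strains.

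Abhd6, a membrane hydrolase that shares 2-arachidonoylglycerol with Mgll, had the lowest mean of its tested probe set in ET3x1 and passed the test in no comparison. The probe set 1390155_at on RAE230A had 8.99, 9.15, 9.12 and 9.13 in ET3x2 pools, 8.85, 8.92, 8.997 and 8.90 in ET3x1 pools, and 9.03, 9.06, 9.05 and 9.02 in S pools. The ET3x1 pools all lay below the S pools, a separation that 1.99% of tested probe sets showed in that direction for ET3x1 against S, and 3 ET3x2 pools lay above all S pools. Its means were 9.10 ± 0.07 in ET3x2, 8.92 ± 0.06 in ET3x1 and 9.04 ± 0.02 in S (SD, n = 4 each). The difference was −0.12 (SE 0.065, limma adjusted p = 0.432) for ET3x1 minus S and 0.057 (SE 0.065, limma adjusted p = 0.786) for ET3x2 minus S. It was 0.18 (SE 0.065) for ET3x2 minus ET3x1, where the limma adjusted p was 0.210 and the unadjusted p 0.015. This was the only unadjusted p under 0.05 among the tested members other than Mgll, for which no p is given.

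The second Abhd6 probe set, 1380332_at on RAE230B, was dim, with means of 6.14 ± 0.11 in ET3x2, 6.30 ± 0.19 in ET3x1 and 6.44 ± 0.16 in S (SD, n = 4 each), all under the filter level of 6.85. Its ET3x2 mean was the lowest of the 3, whereas for 1390155_at the ET3x2 mean was the highest. The dim probe set was not tested, and the strains overlapped in every comparison. For ET3x2 minus S its difference was −0.30 (SE 0.10), and 3 of the 4 ET3x2 pools lay below all S pools.

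Cnr1, the gene of the CB1 receptor, was close to the filter level. The probe set 1387674_at had signals of 8.04, 7.95, 7.81 and 8.01 in ET3x2 pools, 7.66, 7.87, 7.87 and 7.85 in ET3x1 pools, and 7.76, 7.91, 7.76 and 7.83 in S pools. In ET3x2, 3 of the 4 pools lay above all S and all ET3x1 pools, and pool K lay among them. Mean signal was 7.95 ± 0.10 in ET3x2, 7.81 ± 0.10 in ET3x1 and 7.81 ± 0.07 in S (SD, n = 4 each). The difference was −0.0015 (SE 0.074, limma adjusted p = 0.996) for ET3x1 minus S, 0.14 (SE 0.074, limma adjusted p = 0.50) for ET3x2 minus S and 0.14 (SE 0.074, limma adjusted p = 0.391) for ET3x2 minus ET3x1, the last of which was 0.089 without pool E.

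The other Cnr1 probe set, 1369677_at, had means of 7.36 ± 0.05 in ET3x2, 7.53 ± 0.11 in ET3x1 and 7.31 ± 0.13 in S (SD, n = 4 each), with a mean over all pools of 7.40, just under the filter level of 7.52. It was not tested. Here 3 ET3x1 pools lay above all S and all ET3x2 pools, a pattern that the tested Cnr1 probe set did not show.

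**Figure D2:**
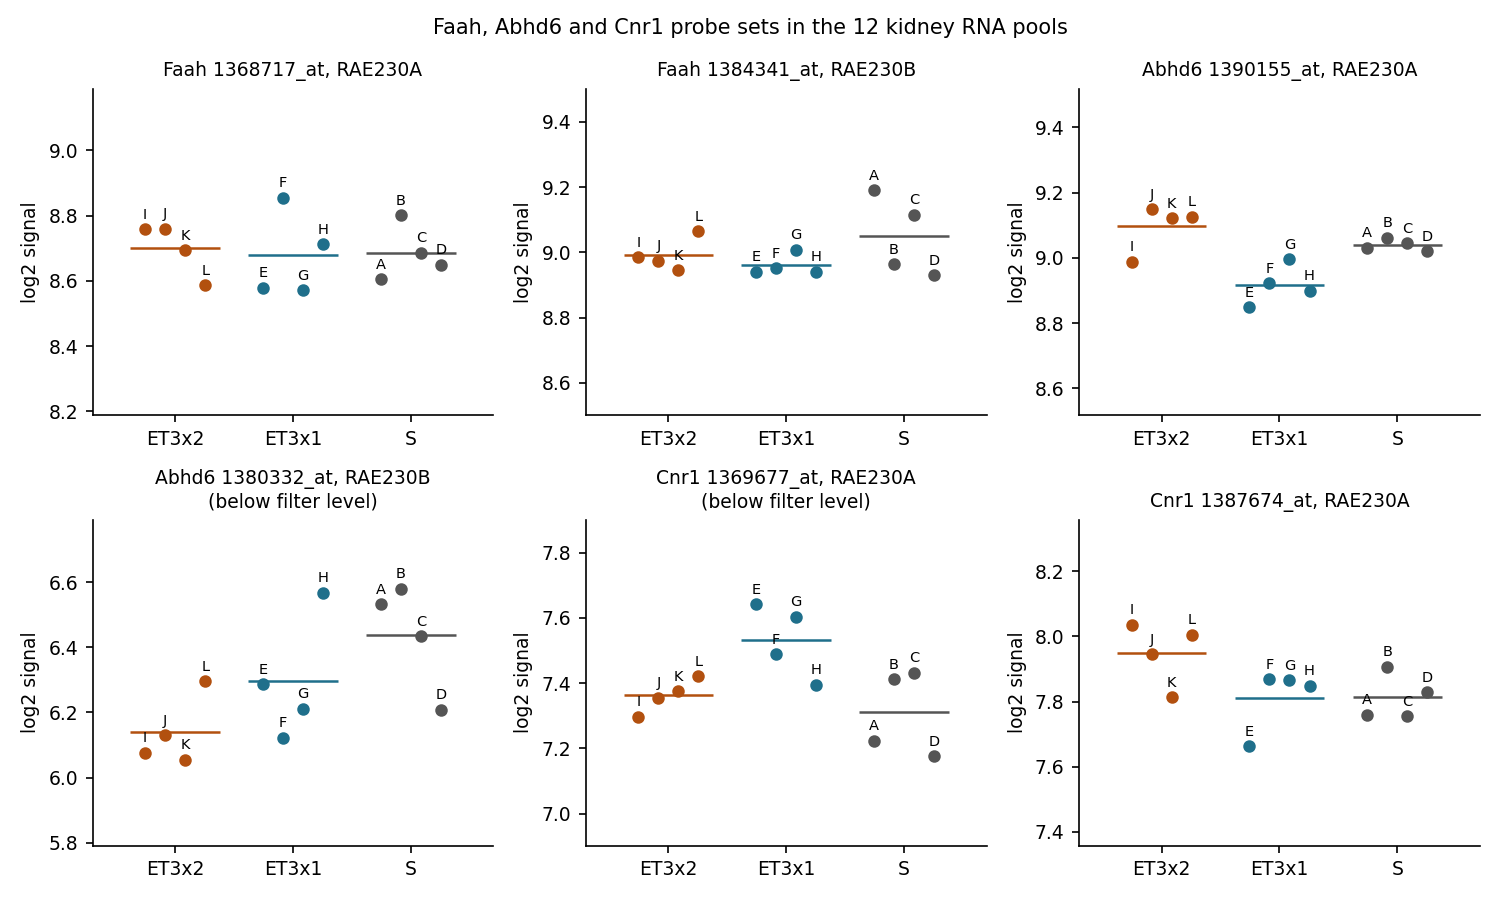
Log2 signal (y axis, 1 log2 unit in every panel) of the Faah, Abhd6 and Cnr1 probe sets in each pool (points, labelled A to L) of ET3x2, ET3x1 and S, with the group mean as a line. Abhd6 1390155_at is lower in all ET3x1 pools (8.85 to 8.997) than in the S pools (9.02 to 9.06), and Faah overlaps in all strains.

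Apart from Mgll, 3 member probe sets were tested, 1 each of Faah, Abhd6 and Cnr1. In limma, 0 of the 3 passed an adjusted p of 0.05 for ET3x1 against S, where 0.44% of all 21799 tested probe sets did, and 0 had an unadjusted p under 0.05. For ET3x2 against S 0 of 3 passed, against 0.344% of all, again with 0 at an unadjusted p under 0.05. For ET3x2 against ET3x1 0 of 3 passed, against 1.48% of all, with 1 at an unadjusted p under 0.05, which 13.1% of all met. With 3 probe sets, counts of 0 lie near these shares.

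**Figure D3:**
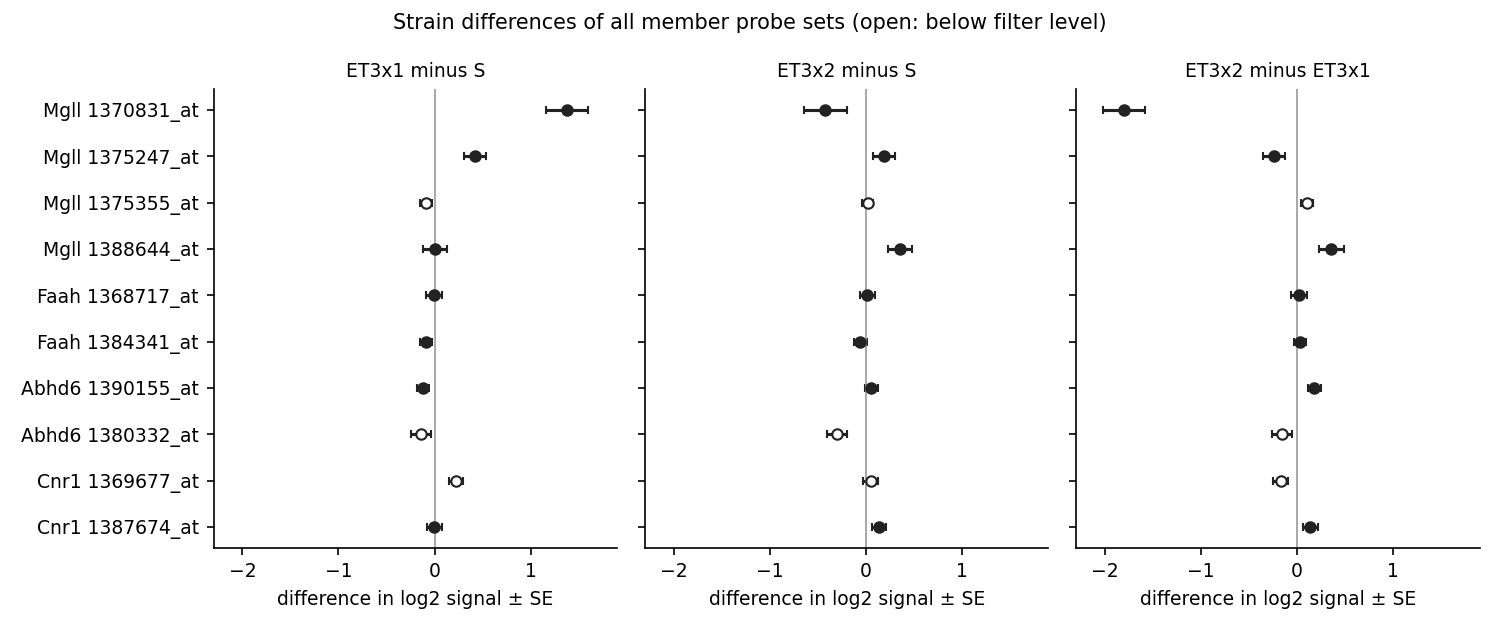
Difference in log2 signal (x axis, bars are the SE of the fit, n = 4 pools per strain) of each member probe set in the 3 comparisons, with open points for probe sets below the filter level. Mgll 1370831_at lies at 1.38, −0.42 and −1.80, and all Faah, Abhd6 and Cnr1 probe sets lie within 0.30 of 0.

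The wider pathway was described by 6 lists with 73 genes, of which 47 were tested, 20 lay below the filter level on every probe set and 6 had no probe set under their symbol. In limma, 0 of the 47 passed in any of the 3 comparisons. Of all tested probe sets, 0.44% passed for ET3x1 against S, 0.344% for ET3x2 against S and 1.48% for ET3x2 against ET3x1. Counts of 0 lie near these shares, here and in the single lists that follow. An unadjusted p under 0.05 was met by 8, 4 and 8 of the 47 in that order of comparisons. Of all tested probe sets, 11.8%, 10.9% and 13.1% met it. The median difference over the 47 was −0.038, 0.033 and 0.080 in that order, where the median of all tested probe sets was −0.0047, 0.025 and 0.032. With estimated array weights 6 of the 47 passed for ET3x2 against ET3x1, where 7.61% of all probe sets then did.

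Among enzymes of 2-arachidonoylglycerol, 0 of 11 tested genes passed in any comparison, with a median of −0.074 for ET3x1 minus S, 0.033 for ET3x2 minus S and 0.082 for ET3x2 minus ET3x1. Abhd12, a further 2-arachidonoylglycerol hydrolase, had the largest of these differences for ET3x2 minus ET3x1, at 0.27 (limma adjusted p = 0.149), with means of 8.34 in ET3x2, 8.07 in ET3x1 and 8.16 in S. Plcb3, a phospholipase C that makes diacylglycerol, was at −0.15 for ET3x1 minus S (limma adjusted p = 0.411).

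Among enzymes of anandamide and other N-acylethanolamines, 0 of 8 tested genes passed. Gde1, a glycerophosphodiesterase that releases anandamide, was at 0.27 for ET3x2 minus ET3x1 (limma adjusted p = 0.143) and at −0.22 for ET3x1 minus S (limma adjusted p = 0.290). Abhd4, which acts before it, was at 0.22 (limma adjusted p = 0.179) and −0.14 (limma adjusted p = 0.434).

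Of genes that oxidise endocannabinoids or carry lipids in the cell, 0 of 4 and 0 of 4 tested genes passed. Cyp2c11, an arachidonic acid epoxygenase, was at −0.36 for ET3x2 minus ET3x1 (limma adjusted p = 0.228), and Fabp3, a fatty acid carrier, at 0.28 for ET3x2 minus S (limma adjusted p = 0.263). Ptgs2, the inducible cyclooxygenase that also takes 2-arachidonoylglycerol, lay below the filter level. Of receptors and their partners 4 of 12 were tested and 0 passed. Cnr2, Ppara and Pparg were below the filter level, and Trpv1, an ion channel that anandamide opens, was at 0.12 for ET3x2 minus ET3x1 (limma adjusted p = 0.562) and at −0.22 for ET3x1 minus S (limma adjusted p = 0.345). The G protein subunits Gnai1 and Gnai2, through which CB1 signals, were at −0.61 (limma adjusted p = 0.473) and 0.37 (limma adjusted p = 0.333) for ET3x1 minus S.

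Of 16 tested genes for triglyceride breakdown and monoacylglycerol use, 0 passed, with medians of 0.037, 0.045 and 0.047 in the 3 comparisons. G0s2, an inhibitor of adipose triglyceride lipase, had signal differences in the direction of Mgll 1370831_at in ET3x1, at 0.34 for ET3x1 minus S (limma adjusted p = 0.215) and −0.31 for ET3x2 minus ET3x1 (limma adjusted p = 0.183). Lpl, lipoprotein lipase, was at 0.31 for ET3x1 minus S (limma adjusted p = 0.281), and Lpin2, a phosphatidate phosphatase, at −0.30 for ET3x2 minus ET3x1 (limma adjusted p = 0.292). Lipe had the opposite signs, at −0.21 for ET3x1 minus S (limma adjusted p = 0.313) and 0.24 for ET3x2 minus ET3x1 (limma adjusted p = 0.204). Of the 16 genes, 9 were positive and 7 negative for ET3x1 minus S, and 10 positive and 6 negative for ET3x2 minus ET3x1.

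**Figure D4:**
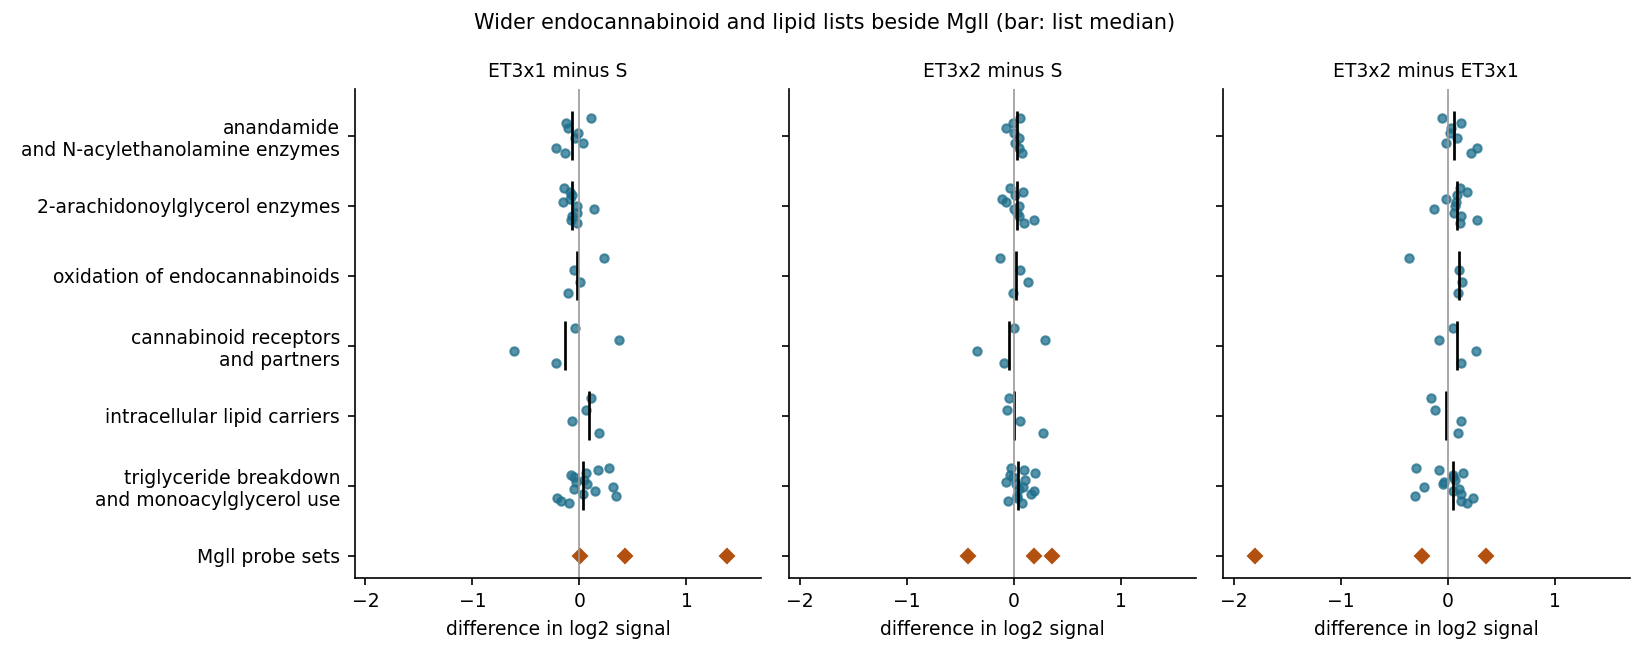
Difference in log2 signal (x axis) of the 47 tested genes of the 6 wider lists (points, 1 probe set per gene, median as a bar) beside the 3 tested Mgll probe sets (diamonds). No list gene passed the test, which 0.344% to 1.48% of all tested probe sets passed, depending on the comparison. The Mgll points spread from 0.0025 to 1.38, from −0.42 to 0.36 and from −1.80 to 0.36 in the 3 comparisons.

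Mgll is abundant in fat, so markers of fat and of other tissue beside the kidney were read in the same pools. The summed linear signal of 6 adipocyte markers was 1711 to 1977 in ET3x2, 1728 to 2038 in ET3x1 and 1582 to 1890 in S, and the strains overlapped. Of the 6, Plin1, Cfd and Lep lay below the filter level, while Adipoq on RAE230B (mean 7.48), Fabp4 and Lpl lay above that of their array. The sum of the brown fat markers Ucp1 and Cidea was 481 to 591 in ET3x2, 366 to 434 in ET3x1 and 392 to 475 in S, so that every ET3x2 pool lay above every other pool, as for 1388644_at against S. Of the 13 marker sums, 2 more lay higher without overlap in ET3x2 than in S, those of the distal convoluted tubule (2924 to 3324 in ET3x2 and 2366 to 2825 in S) and of T and B cells (541 to 633 in ET3x2 and 478 to 535 in S). Against ET3x1, the proximal tubule sum also lay higher (34099 to 35365 in ET3x2 and 30873 to 33820 in ET3x1), and for ET3x1 against S 0 of the 13 sums separated. Of single tested probe sets, 3.87% lay higher without overlap in ET3x2 than in S. For ET3x1 against S, 4.41% lay higher and 1.99% lower without overlap, so that 0 of 13 lies near these shares. No such share is given here for sums, or for ET3x2 above ET3x1. Ucp1 was below the filter level, and Cidea differed by 0.15 for ET3x2 minus S (limma adjusted p = 0.537). Pvalb of the distal tubule sum and Cd3e and Cd79b of the T and B cell sum were also below it. For ET3x2 minus S, Slc12a3 differed by 0.28 (limma adjusted p = 0.334) and Cd3g by 0.29 (limma adjusted p = 0.245). The part of these cells in the Mgll signals was not tested.

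The sum of 5 adrenal markers was 901 to 946 in ET3x2, 831 to 936 in ET3x1 and 848 to 1035 in S. Of 26 tested markers of all cell types, 1 passed for ET3x1 against S, where 0.44% of all tested probe sets did. It was Atp6v1b1 of intercalated cells, at 0.33 and close to the threshold (limma adjusted p = 0.048). In the other comparisons 0 passed, against 0.344% of all for ET3x2 against S and 1.48% for ET3x2 against ET3x1.

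Mgll lies on chromosome 4 in the annotation of the rat assembly GRCr8, outside the chromosome of the donor segment, as do Faah and Cnr1 on chromosome 5 and Abhd6 on chromosome 15. The 5 tested protein-coding genes nearest to Mgll on each side in that annotation, 10 in all, were read. Their differences ran from −0.22 to 0.21 for ET3x1 minus S, from −0.030 to 0.27 for ET3x2 minus S and from −0.053 to 0.23 for ET3x2 minus ET3x1. The limma threshold was passed by 0 of the 10 in every comparison, against 0.44%, 0.344% and 1.48% of all tested probe sets in the same order. With 10 genes, counts of 0 lie near these shares. The nearest tested genes on either side were Sec61a1, a subunit of the protein channel of the endoplasmic reticulum, at 0.028, 0.035 and 0.0073, and Abtb1 at −0.11, 0.048 and 0.16.

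The genes with the pattern most like that of Mgll 1370831_at over the 12 pools of RAE230A were Cxxc5 (Pearson r 0.96), Plpp3 (0.95), Igfbp5 (0.94), Stat3 (0.94) and Ppp1r12a (0.93). Plpp3, a phosphatase of lipid phosphates, had means of 8.60 in ET3x2, 9.49 in ET3x1 and 8.86 in S. Igfbp5, a binding protein of insulin-like growth factors, had 10.60 in ET3x2, 11.66 in ET3x1 and 10.76 in S. Stat3, a transcription factor of cytokine signalling, had 10.11 in ET3x2, 10.88 in ET3x1 and 10.40 in S. These genes were chosen for the likeness, and the order ET3x1, S, ET3x2 follows from it.

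The other tested probe sets of these genes were read for ET3x2 minus ET3x1. Cxxc5, the most like, was at −0.39 and its other probe set at −0.12. The Igfbp5 probe set chosen was at −1.06, and the 4 others were at 0.16 (SE 0.11), 0.073 (SE 0.15), 0.37 (SE 0.44) and 0.34 (SE 0.30). The Plpp3 probe set was at −0.89, and the others at 0.29 and −0.024. Stat3 was at −0.77 and its other probe set at −0.065. For Ppp1r12a, a myosin phosphatase subunit, the other probe sets were at −0.23 and −0.61 beside −0.42, so that all of them had the same sign.

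**Figure D5:**
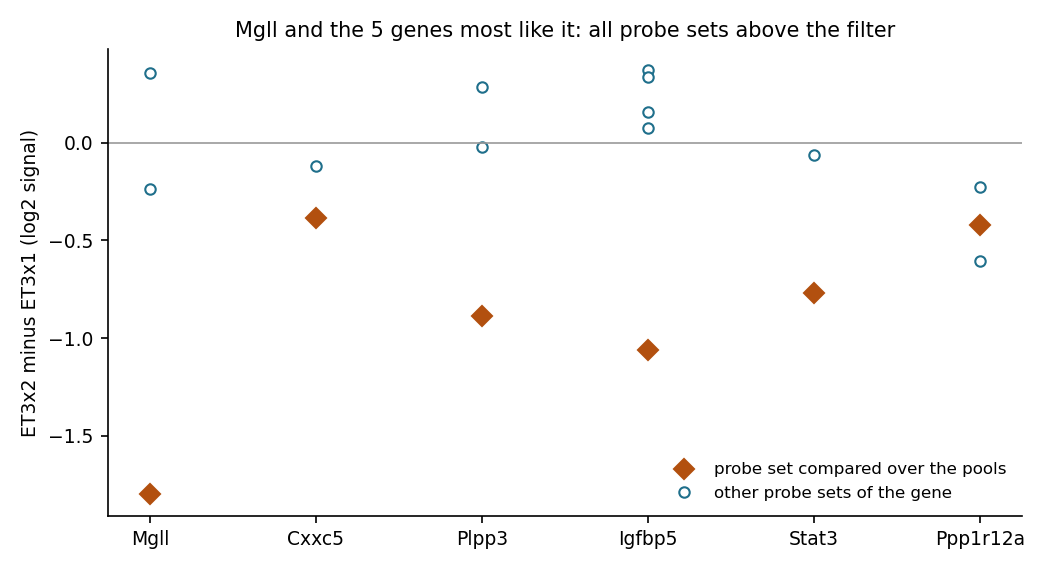
Difference in log2 signal for ET3x2 minus ET3x1 (y axis) of every tested probe set of Mgll and of the 5 genes whose probe set was most like Mgll 1370831_at over the 12 pools (diamonds), with the other probe sets of each gene as open circles. In Mgll, Plpp3 and Igfbp5 at least 1 other probe set lies above 0 while the diamond lies at −1.80, −0.89 and −1.06. The SE is not drawn.

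After the strain means were subtracted, so that only the variation of pools within strains was left, the most like genes were Acsl1 (Pearson r 0.96), Tnrc6b (0.94), Lactb (0.94), Septin8 (0.94) and Eid1 (0.91). Acsl1, which activates fatty acids to their coenzyme A esters, differed by 0.37 for ET3x1 minus S and by −0.37 for ET3x2 minus ET3x1 with the like probe set, while its other tested probe set was at 0.046 and 0.051. The lists of like genes before and after this step had no gene in common.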

How the data were processed

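Per the labels, RNA of 32 rats in 12 pools, 4 per strain, was labelled with biotin and hybridised to RAE230A and RAE230B. The authors deposited 1 value per probe set and pool, taken here as log2 signal from its range (4.97 to 15.24 and 4.10 to 14.28); summarisation, background correction and normalization are not given in the sources used here. Arrays have no read depth, and their number limits the precision. The 57 control probe sets per array and probe sets with a mean under the 30th percentile were left out, leaving 11106 and 10693. Each array was fitted with limma 3.58.1 (lmFit, eBayes with trend) in R 4.3.3 over all 12 pools, with two-sided p-values and Benjamini-Hochberg adjustment per array and contrast. The threshold was 0.05. The fit was also run on simulated data, and the outcome is not reported here. The simulated shifts were larger than most differences described, so that it says little about probe sets that did not pass. P-values cover only pool-to-pool spread.

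Members, lists and tests were chosen with earlier results of these data known. Named are all members, of each wider list and contrast up to 4 called genes or, as none passed, genes among the 2 with the largest absolute differences, and the 5 genes most like Mgll before and after subtracting strain means. Ptgs2, Cnr2, Ppara and Pparg are named only as below the filter, and further contrasts of a named gene are given beside its own. Lipe is named for its signs, which were opposite to those of G0s2. Wider lists used 1 probe set per gene, the brightest, from RAE230A where possible. The exact test planned between probe sets of a gene was not run, because no gene besides Mgll had 2 counted probe sets above the filter. Symbols came from the platform tables, updated through RefSeq identifiers of GRCr8, and of the probe sets on RAE230A 12783 had 1 symbol, 312 several and 2771 none, and on RAE230B 7564, 100 and 7612. Alternatives were other filters, scalings, priors, weights and sets of pools. Figures were drawn with matplotlib 3.10.9.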

Additional observations from a re-analysis of the deposited data

Results flagged for a closer look

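Cnr1 1387674_at in ET3x1 pool E, at 7.66, lay far from the other 3 ET3x1 pools (7.85 to 7.87). Its gap to the nearest pool made up 0.90 of the range of the group, above Dixon's critical value for 4 values. Among 30 groups of 4 pools examined for 10 probe sets, 1 was picked out in this way, and chance picks out about 1 in 20.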

How the results depend on the processing

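The counts of Faah, Abhd6 and Cnr1 probe sets past the threshold stayed at 0 in all 3 comparisons under all 20 alternatives. The count of wider list genes for ET3x2 against ET3x1 was 6 with estimated array weights (Abhd4, Gde1, Abhd12, Lipe higher, Cyp2c11 and Lpin2 lower, with 7.61% of all probe sets called), and 0 to 1 on leaving out single pools, where Gde1 passed without pool F (difference 0.35, limma adjusted p = 0.0225), with 2.24% of all probe sets called. The Mgll differences of 1370831_at kept their signs in all alternatives (1.17 to 1.73, −0.63 to −0.20 and −1.93 to −1.68), and ET3x2 minus S was −0.63 without pool D, −0.28 without pool B and −0.20 without A, B and J. For 1375247_at, ET3x2 minus S was 0.11 without J and 0.29 without K, and ET3x2 minus ET3x1 −0.14 without K. For 1388644_at, ET3x1 minus S ran from −0.15 to 0.11. Faah 1384341_at was at −0.042 for ET3x1 minus S and −0.010 for ET3x2 minus S without A, and at 0.0078 for ET3x2 minus ET3x1 without L. Abhd6 1390155_at for ET3x2 minus S was 0.093 without I, and Cnr1 1387674_at for ET3x2 minus ET3x1 0.089 without E. Some differences near 0 changed sign. Faah 1368717_at was at 0.011 for ET3x1 minus S without A, B and J (−0.065 to 0.032 on leaving out single pools), at −0.0055 with quantile normalization and −0.0053 with median centring for ET3x2 minus S (−0.013 to 0.053), and at −0.015 to 0.079 for ET3x2 minus ET3x1. Cnr1 1387674_at for ET3x1 minus S was at 0.0022 with quantile normalization, 0.019 without A, B and J, and −0.021 to 0.048 on leaving out single pools. The cause of these changes was not tested. With the filter at the 50th percentile Cnr1 was not tested. Scaling moved the median of all probe sets by under 0.1. No paired analysis was possible because the pools of different strains share no replicate label. Signal near the filter level limits Cnr1 and the dim probe sets of Mgll and Abhd6.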
